A study of Homo sapiens with 12 samples.

Results

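The mitosis and spindle genes are a set of 40 genes that act in cell division: mitotic kinases and cyclins, the chromosomal passenger complex, the spindle checkpoint, the control of anaphase, kinetochores, kinesins, spindle assembly and cytokinesis, with the chromosome proteins TOP2A and MKI67 and the transcription factor FOXM1. They were chosen by symbol, and each symbol matched 1 of the 60676 gene rows. All 40 were among the 16192 genes that passed the filter on low counts and were tested. The rule names no measured value, but the set was proposed with earlier results of these data known.

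The 12 RNA-seq libraries came from A549, a long-established line grown from a human lung adenocarcinoma, and form 4 groups of 3. The groups were LETS1 cells given TGF-β, LETS1 cells given ligand buffer, Co.vec cells given TGF-β and Co.vec cells given ligand buffer, with TGF-β at 5 ng/mL and either addition lasting 4 h. LETS1 cells carried a lentiviral construct for LETS1, a long non-coding RNA, and Co.vec cells the empty vector, in which the promoter is EF1a and the selection gene is that for puromycin resistance. All 4 groups had therefore been infected with lentivirus and selected with puromycin, and the cells were transduced populations of 1 line. Replicates are described as biological, but nothing given here ties each to a separate infection, so the p-values measure only the spread between these samples. As described, LETS1 itself cannot be told apart from any other difference between the LETS1 and Co.vec populations.

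The genes of mitosis are transcribed in waves, and most are highest in G2 and M phase. Cyclin B with CDK1 drives entry into mitosis, the kinetochores capture spindle microtubules, the checkpoint holds back the anaphase-promoting complex until all chromosomes are attached, and the complex with CDC20 then marks cyclin B and securin for destruction. Many of these genes share promoter elements called CHR (cell cycle genes homology region), bound by the MuvB complex. MuvB represses them together with p130 and E2F4 in the DREAM complex, and activates them together with B-MYB and FOXM1. In epithelial cells TGF-β is known for arresting the cycle in G1. In RNA from whole cultures, fewer cells in mitosis and less RNA of these genes per cell cannot be told apart.

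Promoter sequences are shown because many members share such elements. RefSeq promoters (GRCh38.p14, 250 bases before to 50 after the start) were at hand for 33 of the 40 members, and a single start per gene was read. The other 7 were AURKA, BUB3, TTK, TPX2, BIRC5, UBE2C and FOXM1. The CHR letters TTTGAA or TTCGAA, read on both strands, stood in the 300 bases of 25 of the 33 members (75.8%), against 1312 of 11625 promoters of genes tested here (11.3%) and 4539 of 27305 promoters in the table (16.6%). The letters CCAAT, bound by NF-Y and read on both strands as CCAAT or ATTGG, stood in 26 of 33 (78.8%), against 4203 of 11625 (36.2%). Both stood in 21 of 33 (63.6%), against 556 of 11625 (4.78%). Matches of the 2 motifs can share bases, as in CDCA8 and HMMR. A match is a description of letters and not a site of binding. The 120 bases before the start are printed 5′ to 3′ on the gene's strand, which is the plus strand in all 8, with these letters in capitals. The first 6 hold CHR letters in the full window and were taken in order from called members with the smallest adjusted p. KIF2C, the single member higher with TGF-β, and KIF20A, the member with the largest fall, were added after their values were seen. All 8 were therefore picked from the results of these data.
CDC20 (chr1:43358861-43358980): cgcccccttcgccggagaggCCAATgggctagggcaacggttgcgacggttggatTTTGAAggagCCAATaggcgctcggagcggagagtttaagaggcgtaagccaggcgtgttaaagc
CDCA8 (chr1:37692396-37692515): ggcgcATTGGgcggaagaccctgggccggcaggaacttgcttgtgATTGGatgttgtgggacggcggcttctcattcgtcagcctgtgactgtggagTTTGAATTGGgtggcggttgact
PLK1 (chr16:23678769-23678888): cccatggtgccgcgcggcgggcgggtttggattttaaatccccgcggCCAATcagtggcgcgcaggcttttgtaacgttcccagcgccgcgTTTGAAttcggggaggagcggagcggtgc
CENPA (chr2:26785936-26786055): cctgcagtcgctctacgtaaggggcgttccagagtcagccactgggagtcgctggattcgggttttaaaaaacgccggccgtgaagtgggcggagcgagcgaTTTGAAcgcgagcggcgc
HMMR (chr5:163460512-163460631): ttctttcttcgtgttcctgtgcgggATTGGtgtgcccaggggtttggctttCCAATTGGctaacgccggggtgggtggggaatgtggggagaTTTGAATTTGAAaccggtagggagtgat
ECT2 (chr3:172750606-172750725): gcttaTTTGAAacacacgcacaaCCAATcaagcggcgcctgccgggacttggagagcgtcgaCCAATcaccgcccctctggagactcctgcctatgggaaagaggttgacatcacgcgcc
KIF2C (chr1:44739717-44739836): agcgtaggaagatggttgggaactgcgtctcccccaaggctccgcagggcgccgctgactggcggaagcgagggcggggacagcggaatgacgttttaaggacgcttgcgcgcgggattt
KIF20A (chr5:138178992-138179111): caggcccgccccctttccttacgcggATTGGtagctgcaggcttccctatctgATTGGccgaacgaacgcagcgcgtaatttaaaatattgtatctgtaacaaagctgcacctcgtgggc
KIF2C held neither motif in the full 300 bases, and KIF20A held CCAAT letters alone. CDC25C and CENPE also held neither.

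Counts in genes ran from 19705135 to 20351043 per library, of which the members took 0.407% to 0.556%. Epithelial markers were present in every library, KRT8 at 4277 to 6672 CPM (counts scaled to the library's total in genes, with TMM factors) and EPCAM at 6.51 to 8.71 CPM. The 6 epithelial markers summed to 8732 to 9086 CPM with LETS1 and TGF-β, 7102 to 7429 with LETS1 and buffer, 9986 to 11048 with Co.vec and TGF-β, and 8864 to 9565 with Co.vec and buffer. KRT8, KRT18 and KRT19 were lower with LETS1 in both media (edgeR, KRT19 at -0.68 with TGF-β and -0.79 in buffer). KRT7 was higher with LETS1 in buffer (0.25), and EPCAM and CDH1 were not called with LETS1. For TGF-β against buffer, CDH1 was lower (-0.39 in LETS1 cells and -0.43 in Co.vec cells). KRT7, KRT8 and KRT18 were higher with TGF-β in both populations, and EPCAM and KRT19 were not called. The 17 markers of blood, endothelial, stromal and other cells summed to 5.43 to 5.59 CPM with LETS1 and TGF-β, 4.17 to 5.22 with LETS1 and buffer, 2.98 to 4.43 with Co.vec and TGF-β, and 3.71 to 4.76 with Co.vec and buffer. PTPRC, CD3E and TYROBP had at most 2 counts in any library, while LUM, at 3 to 37 counts, was higher with LETS1. CD14 had the most, at 25 to 54 counts, and was lower with TGF-β in Co.vec cells (-0.63). It was not called with LETS1. RGS5, at 12 to 25 counts, was not called. The early TGF-β target PMEPA1 averaged 1163 CPM with TGF-β and 256 with buffer in LETS1 cells, and 1147 with TGF-β and 188 with buffer in Co.vec cells, so the ligand labels matched it. No gene row carried the symbol LETS1, and the level of the introduced transcript was not checked here.

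Per kilobase of exon (GENCODE 29), the members spanned a wide range of levels. TOP2A, the topoisomerase that untangles chromosomes, was highest with a median of 112 CPM per kb over the 12 libraries and a range of 94.2 to 132. CCNB1 (70.7), TPX2 (64.9) and UBE2C (62.4) followed, and the ranges of these 3 overlapped. ECT2 (50.2), CDC20 (47.1), AURKA (45.4) and PTTG1 (44.0) came next and also overlapped. MKI67, the source of the Ki-67 antigen, stood at 34.5 CPM per kb. Near the low end were NDC80 (5.36) and CDC25C (5.35). TOP2A had 1.40 times as many CPM in its highest library as in its lowest, and CDC20 had 1.69 times as many. At the far end of the order were NUSAP1 (0.197) and PRC1 (0.0581).

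NUSAP1 and PRC1 were barely counted. NUSAP1, a microtubule bundling protein, had 5 to 17 counts per library and PRC1, which bundles microtubules at the spindle midzone, had 3 to 11. In GENCODE 29, 62.16% of the exonic bases of NUSAP1 lie in AC087721.2 on the same strand, and 58.39% of those of PRC1 lie in AC068831.7 on the same strand and in PRC1-AS1 on the other. Fragments that matched several genes made up 10.1% to 10.9% of all fragments per library and were not given to a gene, and their part in these low counts was not tested. The log2 fold change with LETS1 that was largest in size was that of PRC1, at -0.41 in buffer (SE 0.467, edgeR adjusted p = 0.639) and -0.53 with TGF-β (SE 0.469, adjusted p = 0.526), and neither passed. Shared exons were smaller elsewhere: 15.94% in FOXM1, 12.5% in PLK1, 10.21% in BUB1B, 9.08% in CCNA2, 8.78% in CDC25C and 6.96% in CENPA. BUB1B and CENPA share with a gene on the same strand, and the others of these with genes on the opposite strand. Counts with same-strand partners are uncertain by what the partners share. With opposite-strand partners this depends on the strand setting of the counts, which is not known here.

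LETS1 cells had more RNA of many mitosis genes than Co.vec cells, by small amounts. The keratin differences with LETS1 given above run with the same contrast, and their part in it was not tested. In buffer, 17 of the 40 members were higher with LETS1 and 1, SPC25, was lower (edgeR quasi-likelihood test, adjusted p under 0.05), where 8.57% of all tested genes were higher and 6.56% lower (15.1% in either direction). With TGF-β, 18 members were higher and 0 lower, against 7.58% and 6.5% of all genes (14.1% in either direction), and DESeq2 also called 0 lower, while SPC25 alone had an unadjusted edgeR p under 0.05 and a lower level. The median log2 fold change over the members was 0.13 in buffer and 0.14 with TGF-β, against 0.01 and 0.00 over all genes. At the mean of both media, 25 members were higher and 1 lower (13.2% and 11.2% of all genes, 24.4% together). MKI67, PTTG1, MAD2L1, KIF11 and KIF4A were called higher only at that mean. No left-out library ended 19 of the 25 rises. Those of MAD2L1 and MKI67 were lost without any 1 of 8 libraries, and those of KIF4A and PTTG1 without any 1 of 6. The rise of KIF11 was lost without any 1 of 4 libraries and that of DLGAP5 without either of 2. The 2 LETS1 comparisons have no library in common, but both come from 1 fit of all 12 libraries with a shared estimate of the spread. Both also set LETS1 cells against Co.vec cells, so they are not independent of each other. Of the members called higher, 15 were called in both media, which is 88.2% of those called in buffer and 83.3% of those called with TGF-β, where 4.77% of all genes were higher in both and 3.6% lower in both. INCENP and KIF23 passed in buffer alone, BUB1, PLK1 and DLGAP5 with TGF-β alone, and 19 passed in neither.

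All 3 LETS1 libraries lay above all 3 Co.vec libraries for 20 members in buffer (16.8% of all genes) and for 21 with TGF-β (14.5%). They lay below for 1 member in buffer and 0 with TGF-β, where 14.2% of all genes did so in each medium. CDC20, UBE2C, CENPA, FOXM1 and KIF23 had all 6 LETS1 libraries above all 6 Co.vec libraries, whatever the medium (2.99% of all genes), and 0 members had them all below (2.5%). Some counts rested on single libraries. Without Co.vec TGF-β replicate 1, in which 28 of 40 members were lowest of their group, 11 members were higher with LETS1 under TGF-β, and 12 and 13 were without LETS1 TGF-β replicates 3 and 2. The fall of SPC25 in buffer was lost without LETS1 buffer replicate 3 or Co.vec buffer replicate 3 (adjusted p = 0.0878 to 0.112). No left-out library ended the rises of 11 members in buffer or of 11 with TGF-β, and AURKA, AURKB, CDC20, KIF2C, TPX2, CDCA8, UBE2C and FOXM1 were in both sets.

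**Figure D1:**
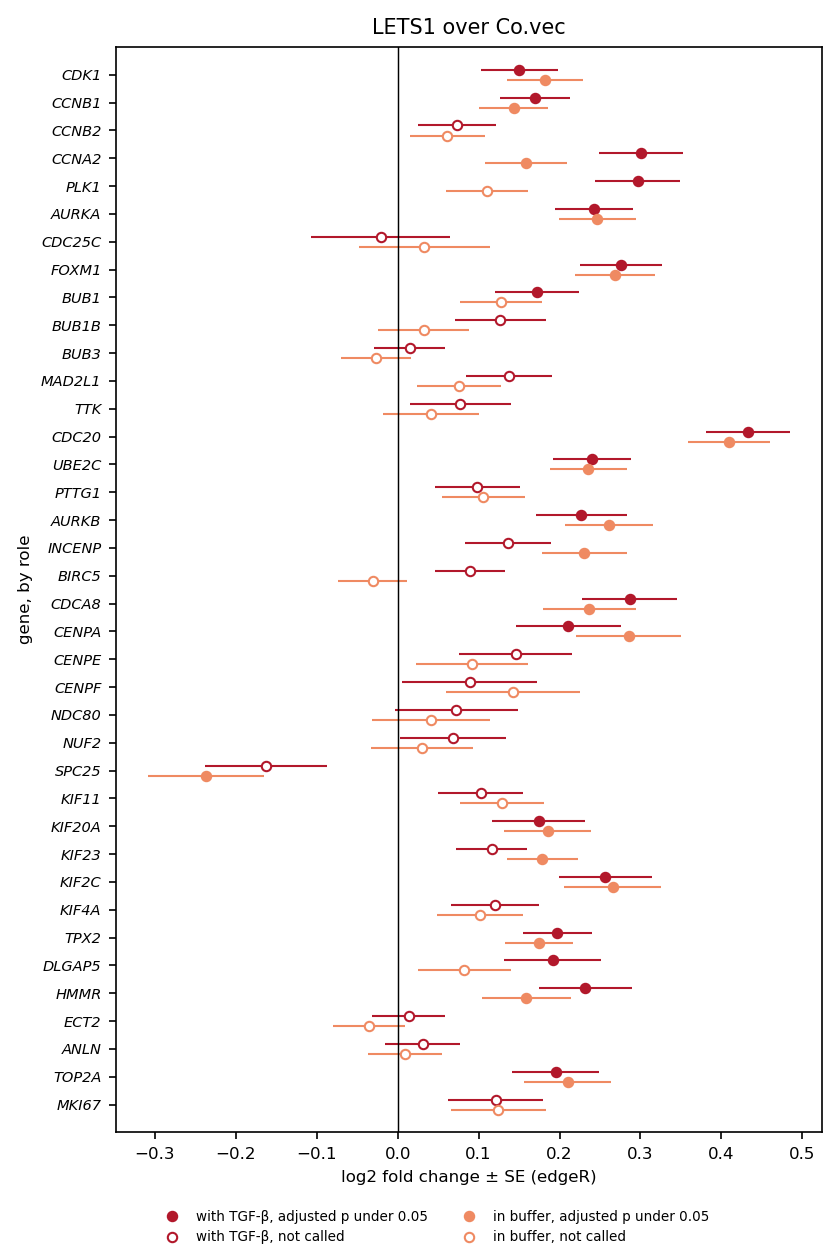
Log2 fold change of LETS1 over Co.vec with its standard error for the members, ordered by role, with TGF-β and in buffer. Filled points have an edgeR adjusted p under 0.05 (18 with TGF-β and 18 in buffer), and CDC20 lies farthest right at 0.43 and 0.41. NUSAP1 and PRC1, with few counts, are left out.

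Most of the 40 genes were lower after 4 h of TGF-β. The epithelial marker differences with TGF-β given above run with the same contrast, and their part in it was not tested. In LETS1 cells 26 members were lower with TGF-β and 1, KIF2C, was higher, where 19.1% of all tested genes were lower and 19.7% higher (38.7% together). In Co.vec cells 26 were lower and KIF2C was higher, where 18.6% of all genes were lower and 21.1% higher (39.7% together). The median log2 fold change was -0.18 in LETS1 cells and -0.20 in Co.vec cells, against -0.02 over all genes in each. These 2 comparisons share no library either, but they too come from the fit of all 12 libraries. The falls had 24 members in common, 92.3% of each set, and 13% of all genes were lower in both and 16.6% higher in both. AURKB and INCENP passed in LETS1 cells alone, and CCNA2 and BIRC5 in Co.vec cells alone. The remaining 11 members, among them CENPA, TOP2A, KIF11 and KIF23, passed in neither.

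Every TGF-β library lay below every buffer library for 27 members in LETS1 cells (24.9% of all genes) and 25 in Co.vec cells (22.9%). Every TGF-β library lay above for 1 member in LETS1 cells (24% of all genes) and 2 in Co.vec cells (24.4%). With library totals in place of TMM scaling, 29 members fell in LETS1 cells and 30 in Co.vec cells. Across all genes that change of scaling turned 3187 rises and 3085 falls in LETS1 cells into 2565 and 4272, and 3416 rises and 3011 falls in Co.vec cells into 2813 and 4024. KIF2C was higher under both scalings.

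**Figure D2:**
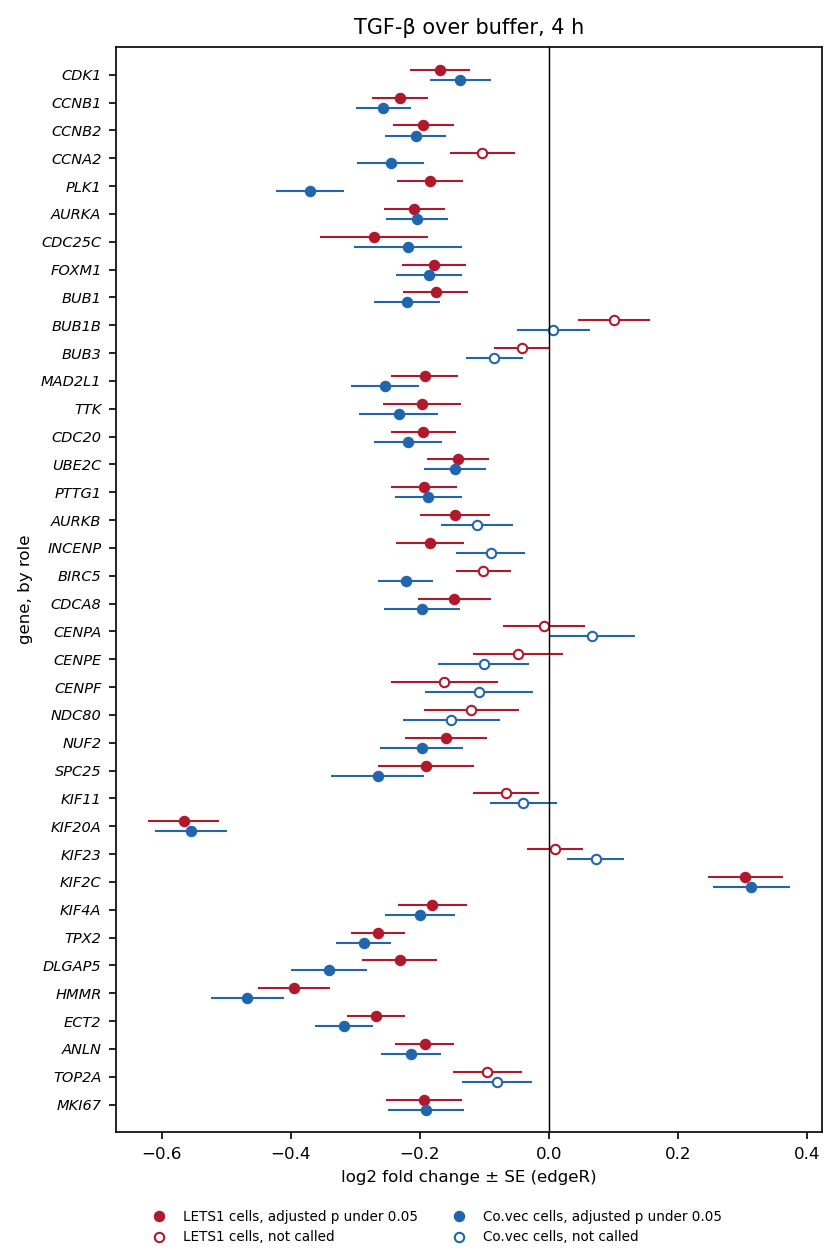
Log2 fold change of TGF-β over buffer with its standard error for the members, in LETS1 cells (red) and Co.vec cells (blue); filled points have an edgeR adjusted p under 0.05. Most points lie left of 0, KIF20A farthest at -0.57 and -0.55, and KIF2C, at 0.30 and 0.31, is the single filled point on the right in each population.

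The TGF-β response of the members did not differ detectably between LETS1 and Co.vec cells. The test of that difference called 0 members (edgeR; of all genes 0.0803% were called higher and 0.599% lower, 0.679% together), with PLK1 alone at an unadjusted p under 0.05 and a lowest adjusted p of 0.441. DESeq2 also called 0. Leaving out NUSAP1 and PRC1, the 95% intervals of the differences lay between -0.31 and 0.33 on the log2 scale for the other 38 members, so differences of that size remain possible. PLK1 had the largest estimate, 0.19 (95% interval 0.04 to 0.33), and MKI67 the smallest, -0.00. The LETS1 and the TGF-β comparisons use the same libraries, and their values are set side by side below. Of the group means, LETS1 cells in buffer had the highest for 31 members and Co.vec cells with TGF-β the lowest for 32.

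**Figure D3:**
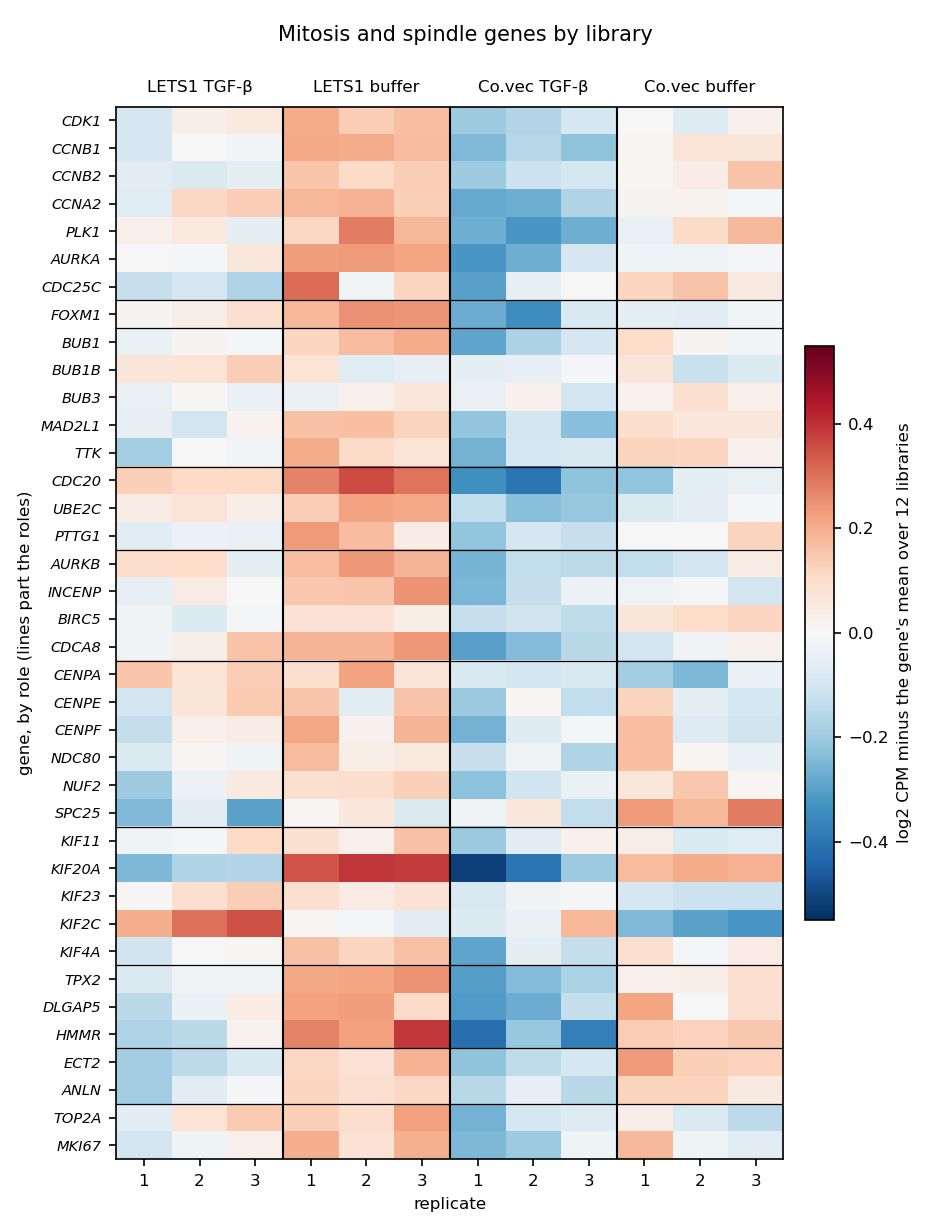
Log2 CPM of 38 members (NUSAP1 and PRC1 left out) in each of 12 libraries relative to the mean of that member over all 12 libraries (red above, blue below), with members ordered by role. The LETS1 buffer columns are mostly red and the Co.vec TGF-β columns mostly blue, with replicate 1 the lowest of its group for 28 of the 40 members. KIF2C is highest in LETS1 cells with TGF-β.

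**Figure D4:**
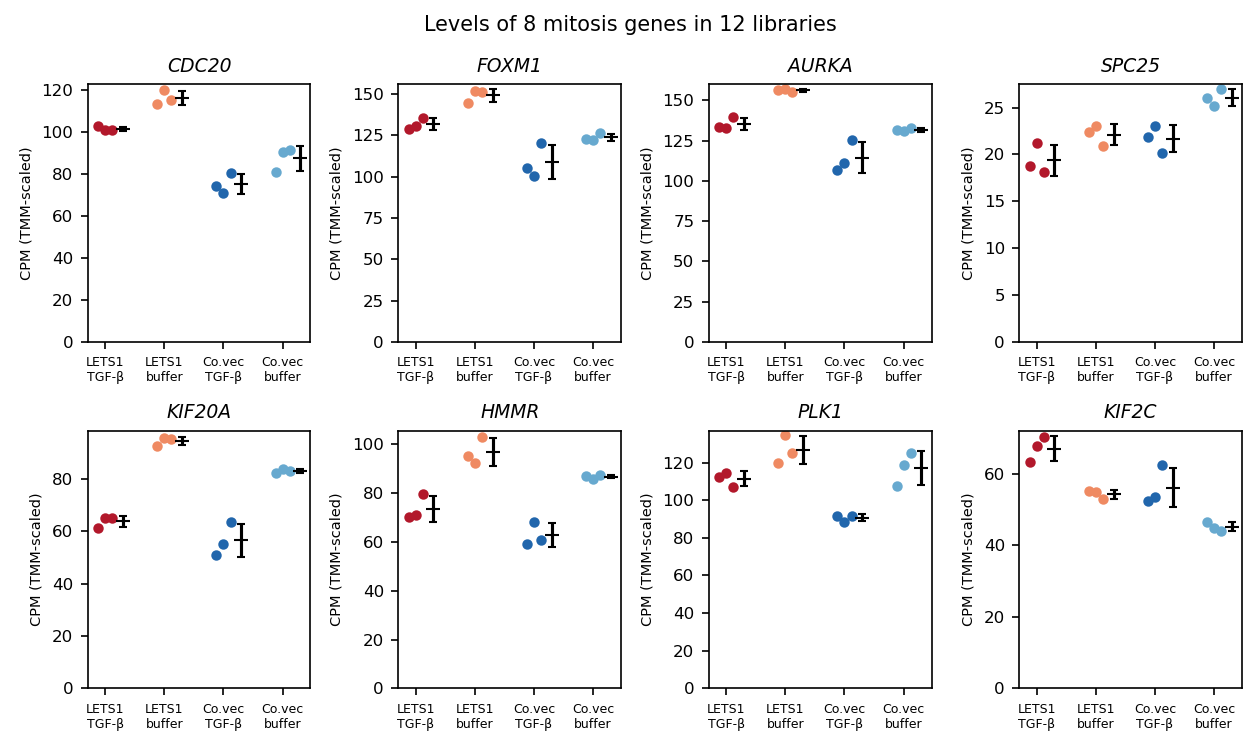
CPM of CDC20, FOXM1, AURKA, SPC25, KIF20A, HMMR, PLK1 and KIF2C in each of 12 libraries (points) with the mean and SD of each group of 3 (bars), on axes that start at 0. CDC20 and FOXM1 are higher in all LETS1 libraries, KIF20A and HMMR drop with TGF-β in both populations, and KIF2C goes up.

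Among the kinases, cyclins and phosphatase of mitotic entry, AURKA, the kinase that matures centrosomes (ENSG00000087586, chromosome 20, 56369389 to 56392337), was higher with LETS1 and lower with TGF-β. Its level was 134, 133 and 139 CPM with TGF-β and 157, 157 and 155 with buffer in LETS1 cells, against 107, 111 and 125 with TGF-β and 131, 131 and 133 with buffer in Co.vec cells. In each medium the LETS1 libraries lay above those of Co.vec, and in each cell population the TGF-β libraries lay below those of buffer, except that LETS1 libraries with TGF-β and Co.vec libraries with buffer overlapped. The log2 fold change of LETS1 was 0.25 in buffer (SE 0.047, adjusted p = 0.000157) and 0.24 with TGF-β (SE 0.048, adjusted p = 0.000292). That of TGF-β was -0.21 in LETS1 cells (adjusted p = 0.000469) and -0.20 in Co.vec cells (0.000705).

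PLK1, a kinase that acts from mitotic entry to cytokinesis (ENSG00000166851, chromosome 16, 23677656 to 23690367), is the third promoter printed above. LETS1 cells had 113, 115 and 107 CPM with TGF-β and 119.7, 135 and 125 with buffer, and Co.vec cells 91.7, 88.6 and 91.8 with TGF-β and 108, 119 and 125 with buffer. With TGF-β the 2 populations did not overlap, while in buffer they did. Its log2 fold change with LETS1 was 0.30 with TGF-β (SE 0.052, adjusted p = 5.09e-05), and the value in buffer, 0.11, did not pass (adjusted p = 0.153). PLK1 fell with TGF-β, with log2 fold changes of -0.18 in LETS1 cells (adjusted p = 0.00379) and -0.37 in Co.vec cells (adjusted p = 2.15e-07). The fall in LETS1 cells was lost without LETS1 buffer replicate 2 (adjusted p = 0.0728).

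CCNB1, cyclin B1, and CCNA2, cyclin A2, were higher with LETS1 in both media. CCNB1 (ENSG00000134057, chromosome 5, 69167010 to 69178245), was counted at 169, 180.0 and 178 CPM with TGF-β and 208, 208 and 203 with buffer in LETS1 cells, and at 153, 162 and 155 with TGF-β and 182, 189 and 189 with buffer in Co.vec cells. Within each medium and within each population its groups were apart. Its log2 fold change with LETS1 was 0.17 with TGF-β (SE 0.043, adjusted p = 0.00502) and 0.14 in buffer (SE 0.043, adjusted p = 0.0164). TGF-β gave -0.23 in LETS1 cells (adjusted p = 2.84e-05) and -0.26 in Co.vec cells (5.93e-06). The rise in buffer was lost without LETS1 buffer replicate 1 or 2 or Co.vec buffer replicate 1 (adjusted p = 0.0630 to 0.0723).

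CCNA2, which acts in S phase and G2 (ENSG00000145386, chromosome 4, 121816444 to 121823933), had 81.8, 92.5 and 93.9 CPM with TGF-β and 97.0, 97.5 and 93.7 with buffer in LETS1 cells. In Co.vec cells it had 70.5, 71.1 and 76.2 CPM with TGF-β and 86.3, 86.7 and 85.2 with buffer. The TGF-β and buffer libraries overlapped narrowly in LETS1 cells and were apart in Co.vec cells. TGF-β gave a log2 fold change of -0.10 in LETS1 cells (adjusted p = 0.104) and of -0.25 in Co.vec cells (adjusted p = 0.000172), and the difference between these, 0.14, did not pass (adjusted p = 0.658). LETS1 gave 0.30 with TGF-β (SE 0.052, adjusted p = 3.35e-05) and 0.16 in buffer (SE 0.051, adjusted p = 0.0266), the last lost without LETS1 buffer replicate 1 or 2 or Co.vec buffer replicate 2 or 3 (adjusted p = 0.0728 to 0.103). Of the other members of this group, CDK1, the kinase of cyclin B, was higher with LETS1 (0.15 with TGF-β and 0.18 in buffer) and lower with TGF-β (-0.17 in LETS1 cells and -0.14 in Co.vec cells). CCNB2, cyclin B2, had 0.07 and 0.06 with LETS1, which did not pass, and fell with TGF-β (-0.19 and -0.21). CDC25C, a phosphatase that activates CDK1, was nearest to 0 of all members for LETS1 at the mean of both media (0.01) and fell with TGF-β (-0.27 and -0.22). All 4 calls of CDK1 and both of CDC25C were lost in some leave-outs, CDK1 under TGF-β without LETS1 TGF-β replicate 2 or 3 or Co.vec TGF-β replicate 1 or 2 (adjusted p = 0.0850 to 0.146) and in buffer without Co.vec buffer replicate 2 (adjusted p = 0.0642). The falls of CDK1 were lost without LETS1 TGF-β replicate 1 (adjusted p = 0.0640) in LETS1 cells and Co.vec TGF-β replicate 1 or 2 or Co.vec buffer replicate 3 (adjusted p = 0.0683 to 0.129) in Co.vec cells, and those of CDC25C without LETS1 buffer replicate 1 (adjusted p = 0.121) in LETS1 cells and Co.vec TGF-β replicate 1 or Co.vec buffer replicate 1 or 2 (adjusted p = 0.0688 to 0.309) in Co.vec cells. In all, 6 of these 7 genes fell with TGF-β in LETS1 cells and 7 in Co.vec cells.

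FOXM1, the transcription factor that activates many G2 and M phase genes (ENSG00000111206, chromosome 12, 2857681 to 2877155), was higher with LETS1 and lower with TGF-β. Its values were 129, 131 and 136 CPM with TGF-β and 145, 152 and 151 with buffer in LETS1 cells, and 106, 101 and 120.4 with TGF-β and 123, 122 and 126 with buffer in Co.vec cells. Every LETS1 library, with or without TGF-β, exceeded every Co.vec library. The log2 fold change of LETS1 was 0.28 with TGF-β (SE 0.051, adjusted p = 9.02e-05) and 0.27 in buffer (SE 0.050, adjusted p = 8.96e-05), a level 1.21 and 1.20 times that of Co.vec. TGF-β gave -0.18 in LETS1 cells (adjusted p = 0.00378) and -0.19 in Co.vec cells (0.00310), the last lost without Co.vec TGF-β replicate 2 (adjusted p = 0.0678).

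The chromosomal passenger complex, which corrects wrong attachments of chromosomes and later acts in cytokinesis, has 4 members here. AURKB, its kinase (ENSG00000178999, chromosome 17, 8204733 to 8210600), had 69.6, 69.8 and 62.8 CPM with TGF-β and 72.9, 76.8 and 74.0 with buffer in LETS1 cells, and 54.6, 59.3 and 59.0 with TGF-β and 59.3, 60.6 and 66.9 with buffer in Co.vec cells. LETS1 exceeded Co.vec in every library within each medium. LETS1 gave log2 fold changes of 0.23 with TGF-β (SE 0.056, adjusted p = 0.00343) and 0.26 in buffer (SE 0.055, adjusted p = 0.000484). With TGF-β the values were -0.15 in LETS1 cells (adjusted p = 0.0306) and -0.11 in Co.vec cells, which did not pass (0.112). The fall in LETS1 cells was lost without LETS1 TGF-β replicate 3 or LETS1 buffer replicate 2 or 3 (adjusted p = 0.0574 to 0.227).

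CDCA8, or borealin, a subunit that targets the complex to centromeres (ENSG00000134690, chromosome 1, 37692418 to 37709719), has CHR letters next to CCAAT letters in the promoter printed above. It was measured at 45.2, 46.8 and 50.9 CPM with TGF-β and 52.1, 52.1 and 53.9 with buffer in LETS1 cells, and at 37.2, 38.7 and 41.2 with TGF-β and 42.6, 45.1 and 46.4 with buffer in Co.vec cells. Within each medium the 2 populations did not overlap. LETS1 gave 0.29 with TGF-β (SE 0.059, adjusted p = 0.000442) and 0.24 in buffer (SE 0.057, adjusted p = 0.00253). TGF-β gave -0.15 in LETS1 cells (adjusted p = 0.0376), a call lost without any 1 of 8 libraries (adjusted p up to 0.208). In Co.vec cells it gave -0.20 (adjusted p = 0.00716), lost without Co.vec TGF-β replicate 1 or Co.vec buffer replicate 3 (adjusted p = 0.0545 to 0.0719). INCENP, the scaffold, was higher with LETS1 in buffer (0.23) and had 0.14 with TGF-β (adjusted p = 0.0859). TGF-β gave -0.18 in LETS1 cells (adjusted p = 0.00457) and -0.09 in Co.vec cells (0.189) for INCENP. BIRC5, or survivin, was not called with LETS1 (0.09 with TGF-β and -0.03 in buffer) and fell with TGF-β in Co.vec cells (-0.22), with -0.10 in LETS1 cells (adjusted p = 0.0582).

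Of the 5 genes of the spindle checkpoint, which delays anaphase, only BUB1, a kinetochore kinase, was called with LETS1 in either medium, at 0.17 with TGF-β (adjusted p = 0.0184) and 0.13 in buffer (0.0850). Its rise was lost without LETS1 TGF-β replicate 2 or Co.vec TGF-β replicate 1 (adjusted p = 0.0884 to 0.196). BUB1, MAD2L1, which inhibits CDC20, and TTK, the kinase that starts the signal, fell with TGF-β in both populations, MAD2L1 with log2 fold changes of -0.19 in LETS1 cells and -0.25 in Co.vec cells. MAD2L1 was called higher with LETS1 only at the mean of both media. The fall of TTK in LETS1 cells was lost without LETS1 TGF-β replicate 1 or LETS1 buffer replicate 1 (adjusted p = 0.0704 to 0.109). BUB3, the partner of the BUB kinases, and BUB1B, or BUBR1, passed in none of the 4 comparisons. BUB1B was nearest to 0 of all members for TGF-β in Co.vec cells (0.01), and had 55.5 ± 1.44 CPM with TGF-β and 51.8 ± 2.81 with buffer in LETS1 cells, against 50.9 ± 0.868 and 50.6 ± 3.48 in Co.vec cells (SD, n = 3 each).

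The control of anaphase gave the largest called LETS1 difference. CDC20, which activates the anaphase-promoting complex and is the target of the checkpoint (ENSG00000117399, chromosome 1, 43358955 to 43363203), had 103, 101 and 101 CPM with TGF-β and 113, 119.9 and 115 with buffer in LETS1 cells. In Co.vec cells it had 74.1, 70.8 and 80.4 CPM with TGF-β and 80.6, 90.4 and 91.1 with buffer. The lowest LETS1 library of either medium exceeded the highest Co.vec library. With TGF-β, CDC20 in LETS1 cells was at 1.35 times the Co.vec level (log2 0.43, SE 0.052, adjusted p = 3.56e-08). In buffer it was at 1.33 times that of Co.vec (log2 0.41, SE 0.051, adjusted p = 5.30e-08). TGF-β lowered it, with log2 fold changes of -0.19 in LETS1 cells (adjusted p = 0.00191) and -0.22 in Co.vec cells (0.000876). No left-out library ended any of these 4 calls.

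UBE2C, the ubiquitin-conjugating enzyme of the same complex (ENSG00000175063, chromosome 20, 45812576 to 45816957), had 82.1, 83.8 and 81.4 CPM with TGF-β and 87.5, 93.0 and 92.1 with buffer in LETS1 cells, and 72.5, 67.9 and 69.0 with TGF-β and 75.3, 77.1 and 79.1 with buffer in Co.vec cells. All 6 LETS1 libraries were above all 6 Co.vec libraries. Its log2 fold change with LETS1 was 0.24 with TGF-β (SE 0.048, adjusted p = 0.000347) and 0.24 in buffer (SE 0.048, adjusted p = 0.000296). With TGF-β the values were -0.14 in LETS1 cells (adjusted p = 0.0163) and -0.15 in Co.vec cells (0.0153). The fall in LETS1 cells was lost without LETS1 TGF-β replicate 1 or 3 or LETS1 buffer replicate 2 or 3 (adjusted p = 0.0540 to 0.0952), and that in Co.vec cells without Co.vec TGF-β replicate 2 or 3 or Co.vec buffer replicate 2 or 3 (adjusted p = 0.0520 to 0.0888). PTTG1, or securin, which holds back separase, had 0.10 with TGF-β and 0.11 in buffer for LETS1. Neither passed, while the mean of both media did. PTTG1 fell with TGF-β (-0.19 in LETS1 cells and -0.19 in Co.vec cells), the last lost without Co.vec TGF-β replicate 1 or Co.vec buffer replicate 3 (adjusted p = 0.0512 to 0.0544).

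At centromeres and kinetochores, CENPA, SPC25 and NUF2 were called in some of the 4 comparisons and the other 3 of the 6 members in none. CENPA, the histone H3 variant that marks centromeres (ENSG00000115163, chromosome 2, 26764289 to 26801067), had 32.2, 30.5 and 31.8 CPM with TGF-β and 30.8, 33.8 and 30.4 with buffer in LETS1 cells, against 27.3, 27.0 and 27.4 with TGF-β and 25.4, 24.4 and 28.2 with buffer in Co.vec cells. It was higher with LETS1 in every library and the TGF-β and buffer libraries overlapped in LETS1 cells and in Co.vec cells. LETS1 gave 0.21 with TGF-β (SE 0.065, adjusted p = 0.0232), a call lost without LETS1 TGF-β replicate 1 or 3 or Co.vec TGF-β replicate 1 or 2 (adjusted p = 0.0587 to 0.0943), and 0.29 in buffer (SE 0.065, adjusted p = 0.00138). The values for TGF-β were -0.01 in LETS1 cells (adjusted p = 0.942), the nearest to 0 of all members, and 0.07 in Co.vec cells (0.456).

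SPC25, a subunit of the NDC80 complex that binds microtubules, was the member lower with LETS1. It had 18.8, 21.3 and 18.1 CPM with TGF-β and 22.4, 23.1 and 21.0 with buffer in LETS1 cells, and 21.8, 23.1 and 20.2 with TGF-β and 26.0, 25.2 and 27.0 with buffer in Co.vec cells. In buffer the LETS1 libraries were all below those of Co.vec, while with TGF-β the 2 populations overlapped. LETS1 gave -0.16 with TGF-β (adjusted p = 0.158) and -0.24 in buffer (SE 0.071, adjusted p = 0.0180), and -0.20 at the mean of both media (adjusted p = 0.00329). The other subunits of that complex, NDC80 and NUF2, were not called with LETS1 (0.07 and 0.07 with TGF-β, 0.04 and 0.03 in buffer). With TGF-β, SPC25 (-0.19 in LETS1 cells and -0.27 in Co.vec cells) and NUF2 (-0.16 and -0.20) fell. In LETS1 cells the fall of SPC25 was lost without any 1 of 6 libraries (adjusted p up to 0.192) and that of NUF2 without any 1 of 9 (up to 0.342). In Co.vec cells that of NUF2 was lost without Co.vec TGF-β replicate 1 or Co.vec buffer replicate 2 (adjusted p = 0.115 to 0.138). CENPE, a kinetochore motor, CENPF, a large kinetochore protein, and NDC80 passed in none of the 4 comparisons.

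The 5 kinesins, motors that build and shape the spindle, held both the largest fall and the one rise with TGF-β. KIF20A, which moves the passenger complex to the midzone (ENSG00000112984, chromosome 5, 138178719 to 138187715), had 61.2, 64.9 and 65.1 CPM with TGF-β and 92.5, 95.5 and 94.99 with buffer in LETS1 cells, and 51.0, 55.1 and 63.3 with TGF-β and 82.0, 83.7 and 83.1 with buffer in Co.vec cells. Every TGF-β library, of either population, was below every buffer library. With TGF-β it was 0.676 times its buffer level in LETS1 cells (log2 -0.57, SE 0.055, adjusted p = 3.88e-11) and 0.681 times in Co.vec cells (log2 -0.55, SE 0.056, adjusted p = 1.11e-10). LETS1 gave 0.17 with TGF-β (adjusted p = 0.0351), lost without LETS1 TGF-β replicate 2 or 3 or Co.vec TGF-β replicate 1 or 2 or Co.vec buffer replicate 2 (adjusted p = 0.0530 to 0.330), and 0.19 in buffer (0.0139), lost without LETS1 buffer replicate 2 or 3 (adjusted p = 0.0515 to 0.0606).

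KIF2C, or MCAK, which takes microtubules apart at centromeres rather than walking along them (ENSG00000142945, chromosome 1, 44739818 to 44767767), was higher with both LETS1 and TGF-β. Its values were 63.1, 67.8 and 70.1 CPM with TGF-β and 55.3, 54.8 and 52.8 with buffer in LETS1 cells, and 52.3, 53.6 and 62.4 with TGF-β and 46.5, 44.9 and 44.0 with buffer in Co.vec cells. The TGF-β libraries were above the buffer libraries in each population. TGF-β gave 0.30 in LETS1 cells (SE 0.058, adjusted p = 4.15e-05) and 0.31 in Co.vec cells (SE 0.060, adjusted p = 4.45e-05). LETS1 gave 0.26 with TGF-β (SE 0.058, adjusted p = 0.00138) and 0.27 in buffer (SE 0.060, adjusted p = 0.00119). None of these 4 calls was ended by leaving out a library. KIF23, a subunit of centralspindlin, was higher with LETS1 in buffer (0.18), with 0.12 under TGF-β (adjusted p = 0.0750), and did not pass for TGF-β (0.01 in LETS1 cells and 0.07 in Co.vec cells). KIF11, which pushes spindle poles apart, passed in none of the 4 comparisons, and KIF4A, a chromosome-bound motor, fell with TGF-β (-0.18 and -0.20), calls lost without LETS1 TGF-β replicate 1 (adjusted p = 0.0651) in LETS1 cells and Co.vec TGF-β replicate 1 (adjusted p = 0.0840) in Co.vec cells. Both KIF11 and KIF4A were called higher with LETS1 only at the mean of both media.

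Of the 5 spindle assembly genes, TPX2, which activates AURKA on the spindle (ENSG00000088325, chromosome 20, 31739271 to 31801805), had 221, 230.3 and 230.1 CPM with TGF-β and 271, 271 and 277 with buffer in LETS1 cells, and 189, 198 and 207 with TGF-β and 238, 239 and 248 with buffer in Co.vec cells. No library of LETS1 overlapped Co.vec within a medium, and none with TGF-β overlapped buffer within a population. LETS1 gave 0.20 with TGF-β (SE 0.043, adjusted p = 0.000874) and 0.18 in buffer (SE 0.042, adjusted p = 0.00255). TGF-β gave -0.26 in LETS1 cells (adjusted p = 2.36e-06) and -0.29 in Co.vec cells (6.05e-07).

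HMMR, a receptor of hyaluronan that also binds spindle microtubules (ENSG00000072571, chromosome 5, 163460203 to 163491945), had the next fall in size after KIF20A. It stood at 70.0, 71.1 and 79.8 CPM with TGF-β and 95.1, 92.2 and 103 with buffer in LETS1 cells, and at 59.2, 68.3 and 60.7 with TGF-β and 86.9, 85.9 and 87.3 with buffer in Co.vec cells. The ligand separated the libraries in each population, with log2 fold changes of -0.40 in LETS1 cells (SE 0.055, adjusted p = 2.07e-07) and -0.47 in Co.vec cells (SE 0.057, adjusted p = 8.87e-09). LETS1 gave 0.23 with TGF-β (adjusted p = 0.00377), lost without LETS1 TGF-β replicate 3 or Co.vec TGF-β replicate 1 (adjusted p = 0.0504 to 0.0561). In buffer it gave 0.16 (0.0424), lost without LETS1 TGF-β replicate 2 or LETS1 buffer replicate 1 or 3 or Co.vec buffer replicate 1, 2 or 3 (adjusted p = 0.0529 to 0.278). DLGAP5, or HURP, which stabilises microtubules near chromosomes, fell with TGF-β (-0.23 in LETS1 cells and -0.34 in Co.vec cells) and was higher with LETS1 under TGF-β (0.19), a call lost without LETS1 TGF-β replicate 2 or 3 or Co.vec TGF-β replicate 1 or 2 (adjusted p = 0.0811 to 0.157).

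The cytokinesis genes ECT2 and ANLN responded to TGF-β and not detectably to LETS1. ECT2, which activates RhoA for the contractile ring (ENSG00000114346, chromosome 3, 172750682 to 172821474), had 242, 249.7 and 261 CPM with TGF-β and 299, 292 and 315 with buffer in LETS1 cells, and 237, 251 and 258 with TGF-β and 325, 302 and 302 with buffer in Co.vec cells. Its TGF-β libraries were all below its buffer libraries, across both populations. TGF-β gave -0.27 in LETS1 cells (SE 0.045, adjusted p = 5.61e-06) and -0.32 in Co.vec cells (SE 0.045, adjusted p = 2.39e-07). For LETS1 the values were 0.01 with TGF-β (95% interval -0.08 to 0.11) and -0.04 in buffer (95% interval -0.13 to 0.05). ANLN, or anillin, the scaffold of the ring, was nearest to 0 of all members for LETS1 in buffer (0.01, 95% interval -0.08 to 0.10) and fell with TGF-β (-0.19 in LETS1 cells and -0.21 in Co.vec cells). Of the chromosome proteins, TOP2A was higher with LETS1 (0.20 with TGF-β and 0.21 in buffer) and not called with TGF-β (-0.10 and -0.08). Its rise was lost without LETS1 TGF-β replicate 2 or 3 or Co.vec TGF-β replicate 1 (adjusted p = 0.0511 to 0.121) under TGF-β and without LETS1 buffer replicate 3 (adjusted p = 0.0534) in buffer. MKI67 was not called with LETS1 in either medium (0.12 and 0.12) and was called higher only at the mean of both. It fell with TGF-β (-0.19 in LETS1 cells and -0.19 in Co.vec cells). Those falls were lost without LETS1 TGF-β replicate 1 (adjusted p = 0.0799) in LETS1 cells and Co.vec TGF-β replicate 1 or 2 or Co.vec buffer replicate 1 (adjusted p = 0.0892 to 0.0949) in Co.vec cells.

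The calls were set beside the promoter letters. Only exact letters at a single start per gene were read, so members without them may still hold such an element. Of the 25 members with CHR letters in the window, 16 fell with TGF-β in LETS1 cells and 15 in Co.vec cells, and of the 8 without them, 5 fell in each. For LETS1, 9 of the 25 rose with TGF-β and 8 in buffer, and 5 of the 8 in each. The medians for TGF-β were -0.18 with the letters and -0.17 without in LETS1 cells, and -0.20 with and -0.20 without in Co.vec cells. Of the 7 members outside the promoter table, 5 fell in LETS1 cells and 6 in Co.vec cells.

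Other lists of cell cycle genes, which hold none of the 40, were counted the same way. They too were chosen with earlier results of these data known. Of all tested genes, 7.58% were higher and 6.5% lower with LETS1 under TGF-β, and 8.57% higher and 6.56% lower in buffer. With TGF-β, 19.1% of all genes fell in LETS1 cells and 18.6% in Co.vec cells. Among 43 genes of G1/S and DNA replication, 10 were higher with LETS1 under TGF-β and 6 in buffer, 0 lower (edgeR) in either, and 30 fell with TGF-β in LETS1 cells and 32 in Co.vec cells. The replication licensing factor CDT1 (-0.55 in LETS1 cells and -0.62 in Co.vec cells) and DTL, part of a ubiquitin ligase that destroys it (-0.52 and -0.58), were among the falls. Of 32 other spindle, motor and centrosome genes, 15 fell with TGF-β in each population, RACGAP1, the partner of KIF23, among them (-0.32 and -0.33), and 5 were higher with LETS1 under TGF-β and 4 in buffer, with KIFC1, a minus-end motor, at 0.27 and 0.24. Of 31 other centromere and kinetochore genes tested, 16 fell in each population, such as HJURP, the chaperone of CENPA (-0.43 and -0.42). With LETS1, 3 and 2 of the 31 rose, near the shares of all genes. The medians for TGF-β were -0.21 and -0.25 for replication, -0.16 and -0.14 for the spindle list and -0.17 and -0.15 for the kinetochore list, in LETS1 and then Co.vec cells.

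Regulators of mitotic entry moved in both directions with TGF-β. Of 16 genes, 7 fell and 3 rose in LETS1 cells and 8 fell and 3 rose in Co.vec cells. Of all tested genes, 19.1% fell and 19.7% rose in LETS1 cells, and 18.6% fell and 21.1% rose in Co.vec cells. CDC25B, a phosphatase that activates CDK1, had log2 fold changes of -0.93 in LETS1 cells (SE 0.041, adjusted p = 1.69e-21) and -0.98 in Co.vec cells (SE 0.041, adjusted p = 3.61e-22), each larger in size than that of any of the 40 members. WEE1, the kinase that inhibits CDK1, rose (0.57 in LETS1 cells and 0.78 in Co.vec cells). Of 6 genes tested with CDK inhibitor (CDKN) symbols, 2 rose and 3 fell in each population. CDKN1A, which encodes the p21 inhibitor, rose (0.89 in LETS1 cells and 0.92 in Co.vec cells), as did CDKN1C. The falls were those of CDKN2C (-0.55 and -0.68), CDKN1B and CDKN3 (-0.25 and -0.32). With LETS1, CDKN1A was higher (0.20 with TGF-β and 0.23 in buffer) and CDKN1B lower (-0.26 and -0.23). CDKN3 was higher with LETS1 under TGF-β alone, and CDKN1C in buffer alone. Of 19 genes of MuvB, DREAM and the E2F family, 4 rose and 3 fell with TGF-β in each population, near the shares of all genes. The activator E2F2 was at -1.14 and -1.09, and the B-MYB gene MYBL2 was higher with LETS1 under TGF-β (0.23). In the anaphase-promoting complex list, 5 of 18 genes fell and 1 rose in each population. In condensin and cohesin, 6 of 17 fell and 3 rose in LETS1 cells, and 5 fell and 2 rose in Co.vec cells.

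**Figure D5:**
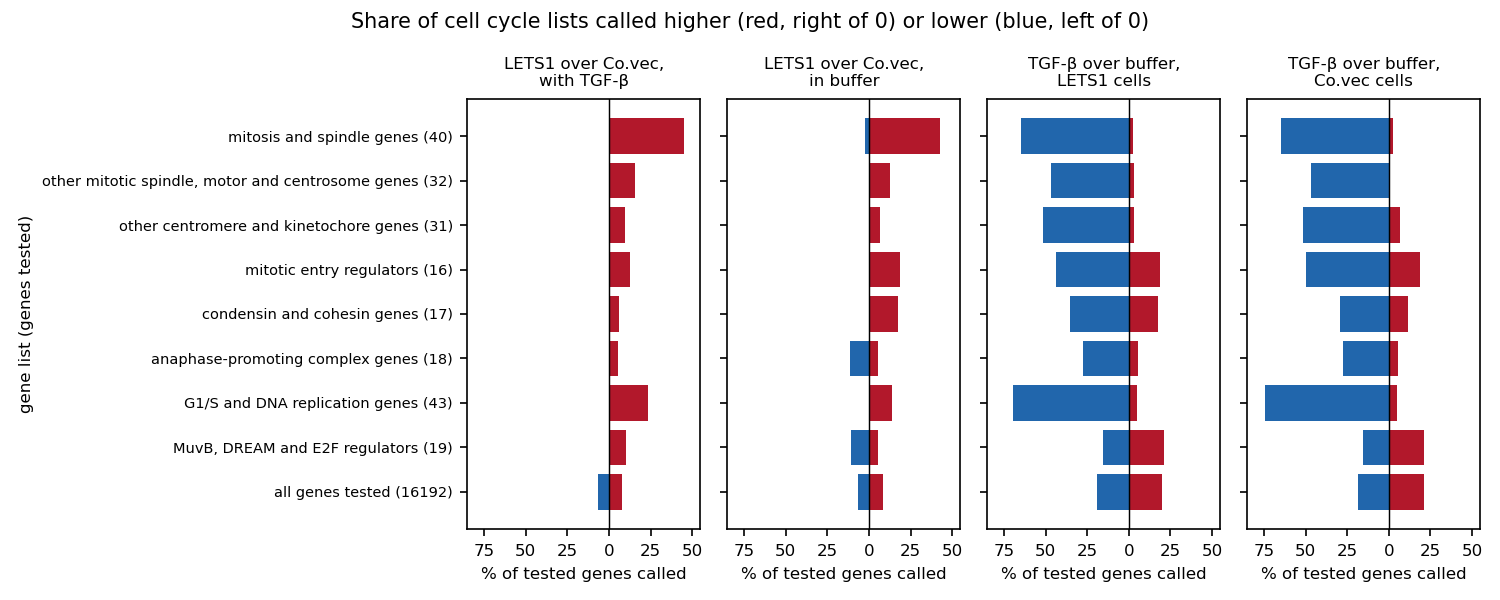
Percent of the tested genes of each list called higher (red, right of 0) or lower (blue, left of 0) in 4 comparisons, with all 16192 tested genes in the bottom row. The mitosis row reaches 42.5% higher with LETS1 in buffer and 65% lower with TGF-β in each population, where all genes are at 8.57% higher and 18.6% to 19.1% lower.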

How the data were processed

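The deposited table holds raw read counts per Ensembl gene for 12 libraries. Per the submitters' processing notes, the tools were FastQC, cutadapt 2.10, STAR 2.7.5a and HTSeq 0.12.4 with build GRCh38; which annotation release and strand setting were used is not given in the sources used here. The 5 summary rows, which name no gene, were left out of library sizes; gene rows held 80.01% to 81.1% of each library's fragments. Symbols were found for 60357 of 60676 IDs.

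Counts were tested in edgeR 4.0.16 (R 4.3.3, limma 3.58.1) with TMM scaling, the tool's own filter on low counts, 1 mean per group over all 12 libraries and a robust quasi-likelihood fit. P-values were adjusted by Benjamini-Hochberg over 16192 genes in each of 6 contrasts and called under 0.05. Intervals are at 95%. No value columns were left unmapped.

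Members given in every library were those with the smallest adjusted p among the called ones (12 for the mean LETS1 comparison and 6 for each TGF-β comparison). SPC25 was added to them after its values were seen. Members with the largest and the nearest-to-0 value in each comparison were also named, not all of them with values per library. The members, lists and named genes were chosen with earlier results of these data known. Libraries of equal replicate number were not treated as pairs: over all tested genes, 0 of 18 correlations of deviations exceeded 0.1. The members were not correlated apart, and their order by replicate is given below. Alternatives were other size factors, no filter, a replicate block, DESeq2 1.42.0, fits of the compared groups alone and leaving out each library. Replicate pairs of every group differed by more than counting noise, so none was counted as 1 library.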

Additional observations from a re-analysis of the deposited data

Results flagged for a closer look

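Of 8 early target genes of TGF-β, none of them a mitosis gene, 4 had a lower response in LETS1 cells than in Co.vec cells by the test of the difference itself and 4 were not called. PMEPA1 and SMAD7, used here to check the ligand labels, were among the 4 called, with BHLHE40 (-0.55, edgeR adjusted p = 1.10e-06) and JUNB (-1.32, adjusted p = 0.00438). Those not called were SKIL (0.00), TGFBR1 (0.03), CCN2 (-0.07) and SNAI1 (-0.47, adjusted p = 0.240). PMEPA1 averaged 1163 CPM with TGF-β and 256 with buffer in LETS1 cells, and 1147 with TGF-β and 188 with buffer in Co.vec cells. Its log2 response in LETS1 cells minus that in Co.vec cells was -0.43 (edgeR adjusted p = 3.61e-05). SMAD7, an inhibitor of the pathway that TGF-β itself induces, averaged 54.4 CPM with TGF-β and 37.8 with buffer in LETS1 cells, and 48.6 with TGF-β and 24.1 with buffer in Co.vec cells, a difference of -0.49 (edgeR adjusted p = 0.00846). Both were higher with LETS1 in buffer (log2 0.45 for PMEPA1 and 0.65 for SMAD7) and not called with TGF-β (0.02 and 0.16). Of 18 immediate early genes tested, JUNB again among them, 16 also had a lower response in LETS1 cells by this test, with 0 higher. Of all genes, 0.599% were called lower and 0.0803% higher. The 20 immediate early genes listed summed to 980 to 1213 CPM with LETS1 and buffer and 393 to 446 with Co.vec and buffer. With TGF-β they summed to 1058 to 1169 CPM in LETS1 cells and 944 to 1082 in Co.vec cells. JUNB was higher with LETS1 in buffer (1.34) and not called with TGF-β (0.02). The test of the difference called 0 of the 40 mitosis genes, with edgeR and with DESeq2. PLK1 alone had an unadjusted edgeR p under 0.05.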

How the results depend on the processing

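Leaving out 1 library at a time gave 11 to 21 members higher with LETS1 under TGF-β (18 with all libraries) and 14 to 19 in buffer (17), with 0 to 1 lower in buffer. At the mean of both media it gave 19 to 27 higher (25 with all libraries). Falls with TGF-β numbered 18 to 27 in LETS1 cells and 19 to 26 in Co.vec cells (26 each with all libraries), and the rise of KIF2C held each time. With a replicate block, 18 members were higher with LETS1 under TGF-β and 16 in buffer, where HMMR lost its call (adjusted p = 0.0502); 26 fell with TGF-β in each population, and the block changed no other call of a member. DESeq2 called 18 and 16 higher with LETS1, and 22 falls in LETS1 cells and 25 in Co.vec cells. Library totals without TMM gave 17 and 17 rises with LETS1, and 29 and 30 falls with TGF-β. With no filter on low counts, rises numbered 18 under TGF-β and 14 in buffer, and falls 22 in LETS1 cells and 23 in Co.vec cells. Over single members and all alternatives, 161 values lost their call, 30 gained one and 0 called values changed sign. The cause of these shifts was not tested. With 3 libraries a group, small changes can be missed, and NUSAP1 and PRC1, at under 20 counts, allow no statement on direction.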

Other observations

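The order of the 4 group means repeated across members. For 17 of the 40 the order, from the top, was LETS1 buffer, Co.vec buffer, LETS1 TGF-β and Co.vec TGF-β, and for 12 it was LETS1 buffer, LETS1 TGF-β, Co.vec buffer and Co.vec TGF-β. Every other order was held by 3 members or fewer. The median biological coefficient of variation between replicates was 0.0400 for the members and 0.0456 for all 16192 genes tested, members included, with no matching on level. LETS1 TGF-β replicate 1 was the lowest of its group for 27 members and Co.vec TGF-β replicate 1 for 28. Replicate 3 was the highest for 24 members in the LETS1 TGF-β group and for 25 in the Co.vec TGF-β group. In buffer the replicate most often lowest was replicate 2 for LETS1 (17 members) and replicate 3 for Co.vec (15).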
